A study of Mus musculus with 13 samples.

Results

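Genes of glutathione, thioredoxin and peroxide metabolism were followed in 2 libraries of mouse spermatogonia. The members are all gene symbols that begin with the names of the glutathione transferases (microsomal ones included), peroxiredoxins, glutathione peroxidases or thioredoxin-related genes. They also include the superoxide dismutases, catalase, the epoxide hydrolases and the enzymes of glutathione synthesis and recycling. The deposited tables held 72 such symbols among 20662. The series profiled RNA of testicular germ cells from 8-week-old C57BL/6 mice with strand-specific sequencing of total RNA after ribosomal RNA had been removed. The 13 samples are the 2 spermatogonial libraries, titled KIT_AGSC and THY1_AGSC, besides 5 of spermatocytes, 5 of spermatids and 1 of mature sperm. The spermatogonial titles name surface antigens used to separate differentiating (KIT) from undifferentiated (THY1) spermatogonia, and the labels name no treatment and do not say how many animals gave each library. Values of the other 11 samples were not analysed here.

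Each group has 1 library, so every difference below compares 2 libraries, without a replicate check and without a p-value. After these titles, the libraries are called the KIT-labelled and the THY1-labelled library. Levels are in FPKM, fragments per kilobase of transcript scaled to the library's total. The antigen transcripts went against these labels. Kit was listed at 0 in the KIT-labelled library and at 36.7 FPKM in the THY1-labelled library, and Thy1 was at 78.8 FPKM in the KIT-labelled library and at 0.723 FPKM in the THY1-labelled library. The value column of the KIT-labelled library is itself headed Thy1, and that of the THY1-labelled library is headed Kit. All directions follow the sample titles and would turn round if the titles were exchanged.

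The proteins described here share 2 small thiol currencies, glutathione and thioredoxin, both kept reduced by enzymes that draw on NADPH. Glutathione transferases couple glutathione to electrophiles, glutathione peroxidases and peroxiredoxins reduce peroxides, and superoxide dismutase and catalase dispose of superoxide and hydrogen peroxide. Developing germ cells use several testis-enriched members of these families, and the steroid-producing Leydig cells between the tubules are also rich in glutathione transferases.

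Most members stood higher in the THY1-labelled library. A gene was counted where its larger value reached 1 FPKM and was called where the libraries were at least 2-fold apart on the log2(FPKM + 1) scale, which understates the change of low genes. Of the 72 members 65 could be counted. Of these, 10 (15.4%) were called higher in the KIT-labelled library, where the same rule called 39.5% of all 15573 counted genes. Another 40 (61.5%) were called higher in the THY1-labelled library, where the rule called 41.1% of all counted genes, and 15 lay within 2-fold. The median difference, KIT-labelled minus THY1-labelled, was -3.06 on that scale over the members and -0.0026 over all counted genes. Scaling both libraries to the same upper quartile, which moved the median of all genes to 0.56, gave 16 members higher in the KIT-labelled library and 37 higher in the THY1-labelled library. The summed level of the members was 1173 FPKM in the KIT-labelled library and 10239 FPKM in the THY1-labelled library. Without the noncoding RNA Rpph1, which took 71.8% of all FPKM in the KIT-labelled library and 37.9% in the THY1-labelled library, the members accounted for 0.274% and 2.05% of the remaining sum in the KIT-labelled and the THY1-labelled library.

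**Figure D1:**
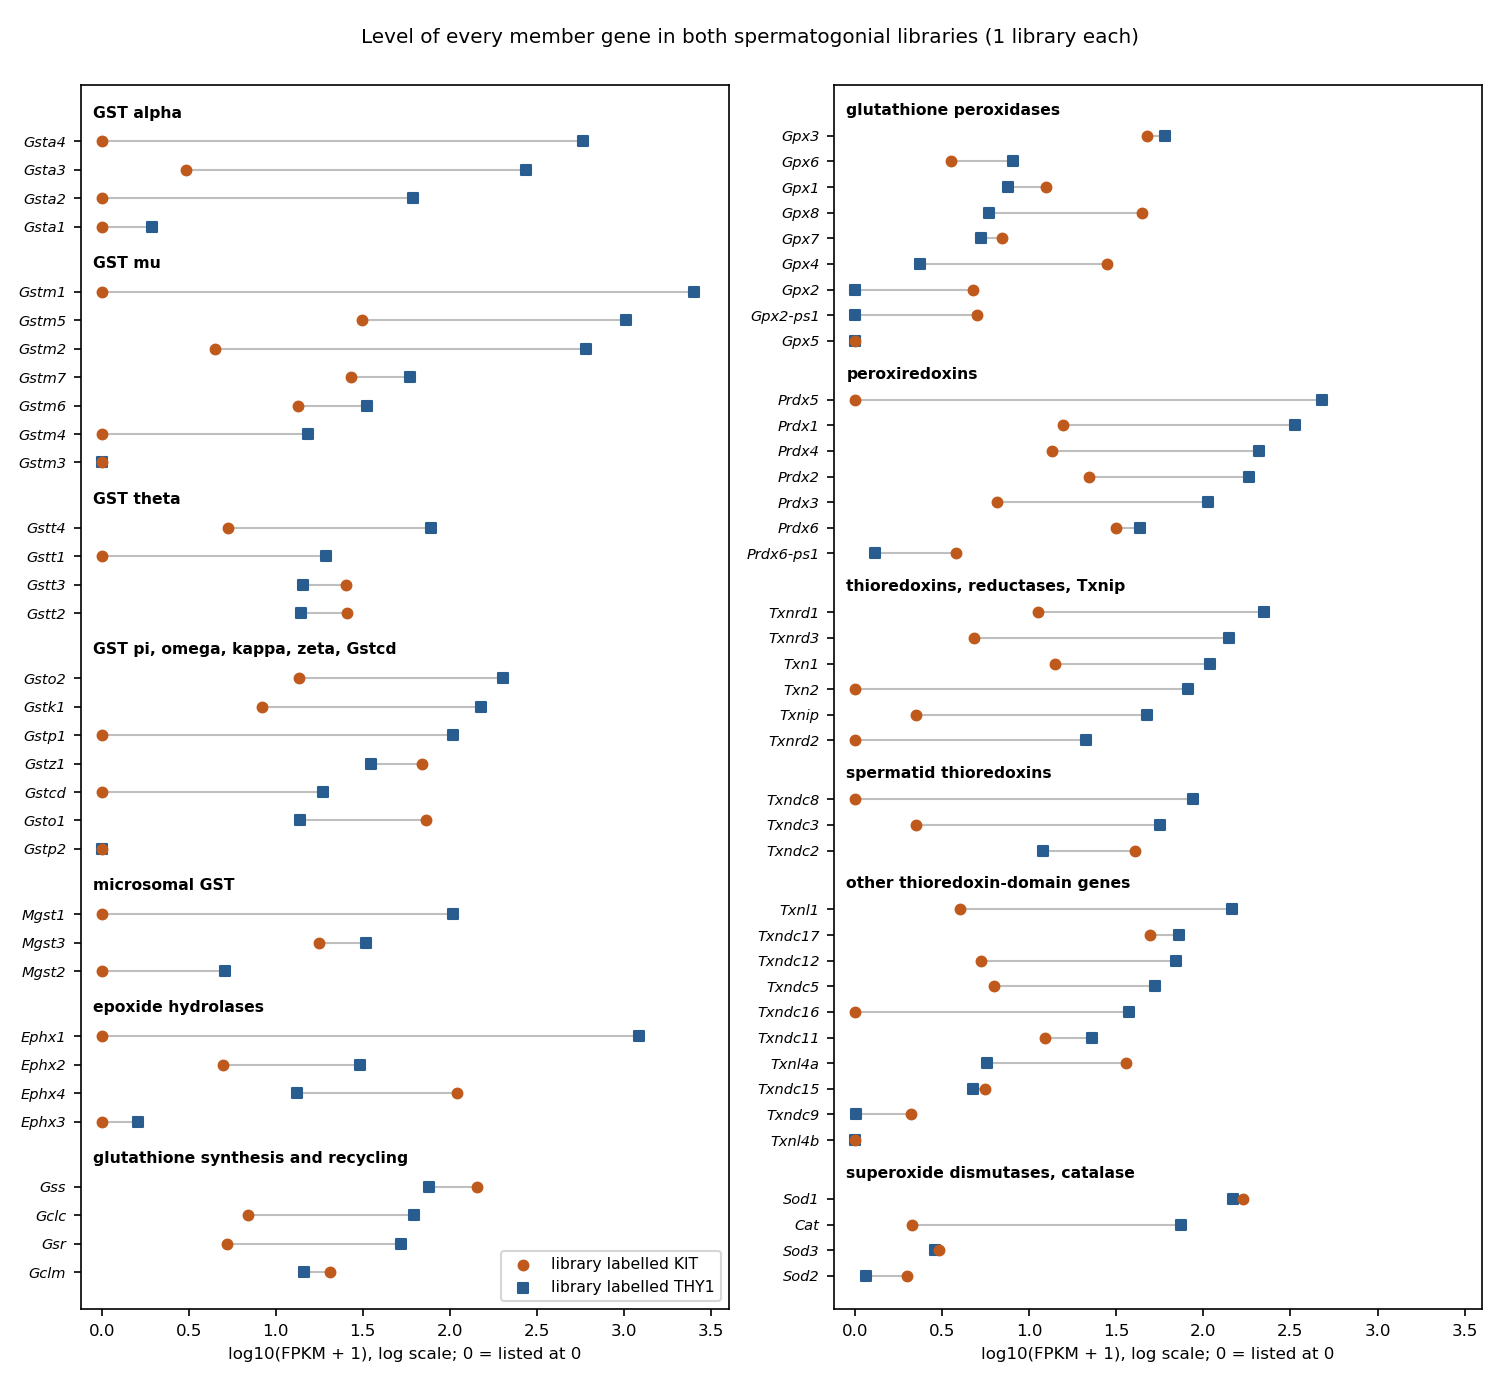
Level of each of the 72 members as log10(FPKM + 1), by role, with circles for the KIT-labelled library and squares for the THY1-labelled library, 1 library each. Squares lie to the right of circles for most transferases, peroxiredoxins and thioredoxins, with Gstm1 at a listed 0 in the KIT-labelled library and at 2512 FPKM in the THY1-labelled library, whereas Ephx4 and the glutathione peroxidases other than Gpx6 lie the other way or close together.

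Many of these differences involve a listed 0. In the KIT-labelled library 21 members were listed at 0, against 6 in the THY1-labelled library, and 4 were at 0 in both: Gpx5, Gstp2, Gstm3 and Txnl4b. Of the 40 members called higher in the THY1-labelled library, 15 were listed at 0 in the KIT-labelled library. Depth is not given in the files. A rough low-end measure put 1 fragment of a transcript of 1000 bases at about 2.74 FPKM in the KIT-labelled library and at about 0.427 FPKM in the THY1-labelled library, 6.41 times less. By that measure, the level of Gstm1 in the THY1-labelled library would correspond to about 1184 fragments in the KIT-labelled library, that of Ephx1 to 780, that of Prdx5 to 222 and that of Gsta4 to 208, yet each was listed at 0 there. The same figure was only 0.910 for Mgst2, 7.40 for Gstt1 and 8.87 for Gstm4, under 10 fragments each. Ftl1, the ferritin light chain made by nearly every cell, was itself listed at 0 in the KIT-labelled library and at 0.552 FPKM in the THY1-labelled library, so a 0 is given only as listed.

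**Figure D2:**
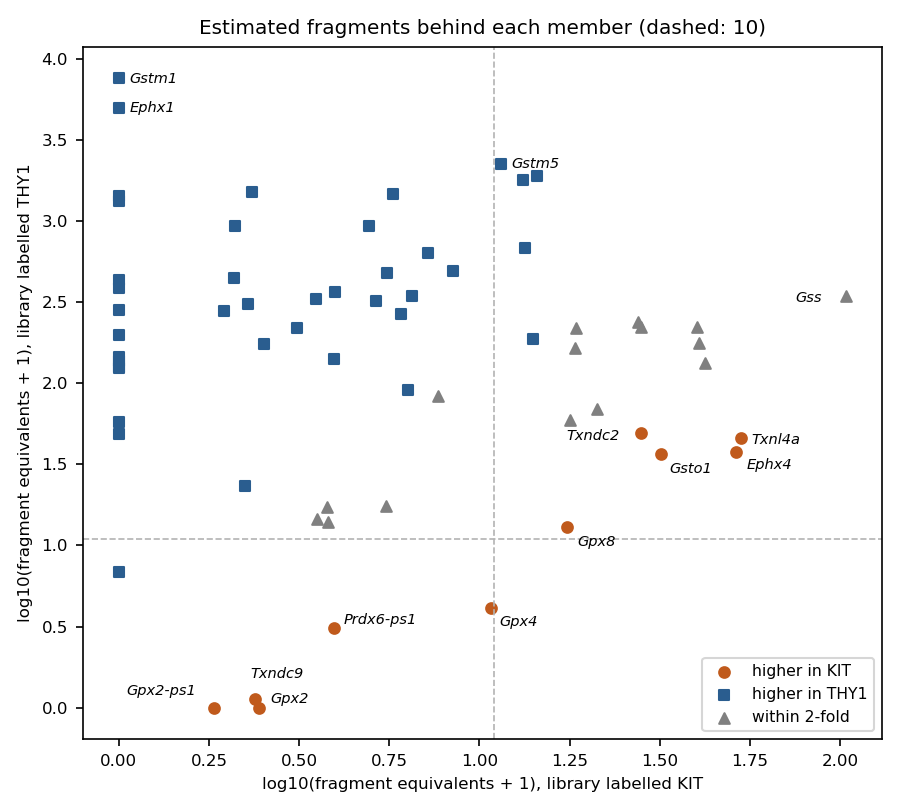
Estimated number of fragments behind each of the 65 counted members, as log10(fragments + 1), in the KIT-labelled library (x axis) and the THY1-labelled library (y axis), coloured by call, with dashed lines at 10 fragments. Of the 10 members called higher in the KIT-labelled library, 5 rest on under 10 fragments there (Gpx4, Prdx6-ps1, Gpx2, Txndc9 and Gpx2-ps1). Of the 40 called higher in the THY1-labelled library, 15 are listed at 0 in the KIT-labelled library. Among the others only Txnrd1, Gstm5, Gstm7, Prdx1 and Prdx2 exceed 10 fragments in the KIT-labelled library, so most of their ratios are rough in size.

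Markers of other cell types differed between the libraries, and their part in these results was not tested. The lists are short, and over all counted genes 39.5% were called higher in the KIT-labelled library and 41.1% in the THY1-labelled library. Of 7 measured Leydig markers 6 were called higher in the THY1-labelled library, and their summed level was 165 FPKM in the KIT-labelled library and 6469 FPKM in the THY1-labelled library. Of these, Hsd3b6 and Hsd17b3 were listed at 0 in the KIT-labelled library, where Star stood at 121 FPKM, against 181 FPKM in the THY1-labelled library. All 7 spermatocyte markers were called higher in the THY1-labelled library (sums of 143 FPKM under the KIT label and 3321 FPKM under the THY1 label, with Dmc1 and Hormad1 listed at 0 in the KIT-labelled library). The first of these sums came mostly from Sycp3 (111 and 286 FPKM) and the second mostly from Meig1 (27.7 and 2410 FPKM). Of 7 spermatid markers 5 were called higher in the KIT-labelled library and 2 in the THY1-labelled library. The 2 are Smcp (43.5 FPKM under the KIT label and 132 FPKM under the THY1 label) and Spaca1 (listed at 0 and at 72.4 FPKM). The sums over all 7 were 4900 FPKM under the KIT label and 833 FPKM under the THY1 label, mostly from Prm1, Prm2, Tnp1 and Tnp2. Of 8 counted Sertoli markers 3 (Sox9, Amh and Wt1) were called higher in the KIT-labelled library and 4 in the THY1-labelled library, with sums of 48.4 FPKM under the KIT label and 962 FPKM under the THY1 label, the second mostly from Clu (1.62 and 848 FPKM). Of 9 macrophage markers 4 (C1qa, C1qb, C1qc and Lyz2) were called higher in the KIT-labelled library and 3 in the THY1-labelled library. Their sums were 270.5 FPKM under the KIT label and 967 FPKM under the THY1 label, the second mostly from Aif1 (24.5 and 880.5 FPKM). Of 5 peritubular markers 3 could be counted, and these 3 were called higher in the KIT-labelled library. The peritubular sums were 180.02 FPKM under the KIT label and 49.3 FPKM under the THY1 label, mostly from Tagln (155 and 47.2 FPKM). Of 3 counted endothelial markers 2 were called higher in the KIT-labelled library and 1 (Cdh5) in the THY1-labelled library. Endothelial sums were 62.1 and 8.14 FPKM in that order, the first mostly from Tek (46.6 and 3.47 FPKM). Erythroid markers, relevant because red cells hold abundant peroxide-reducing enzymes, summed to 72.8 FPKM in the KIT-labelled library and to 12.9 FPKM in the THY1-labelled library. Of 7 markers of undifferentiated spermatogonia only 4 could be counted. Of these, 3 were called higher in the KIT-labelled library and 1 in the THY1-labelled library. Of 5 counted markers of differentiating spermatogonia 0 and 3 were called in that order. The 3 are Kit itself, whose values are given above, Stra8 (0.743 FPKM under the KIT label and 34.1 FPKM under the THY1 label) and Sohlh2 (listed at 0 and at 5.86 FPKM). Among the undifferentiated markers, Zbtb16 was listed at 0 in both libraries and Nanos2 was at 54.1 FPKM in the KIT-labelled library and 1.49 FPKM in the THY1-labelled library. In such bulk samples, fewer cells of a type and less RNA per cell cannot be told apart.

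The glutathione transferases other than the microsomal ones, with Gstk1 and Gstcd included, carried the largest part of the members' summed level in both libraries. Of 22 members 19 could be counted, of which 1 (5.26%) was called higher in the KIT-labelled library and 15 (78.9%) in the THY1-labelled library. Over all counted genes these shares were 39.5% and 41.1%. Their summed level was 287 FPKM in the KIT-labelled library and 5799 FPKM in the THY1-labelled library, which is 24.5% and 56.6% of the sum over all members. Gstm1, Gstm2 and Gstm5 alone summed to 33.8 FPKM in the KIT-labelled library and to 4139 FPKM in the THY1-labelled library. Without these 3 genes the remaining transferases still summed to 253 FPKM in the KIT-labelled library and 1659.9 FPKM in the THY1-labelled library, 6.56 times more.

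**Figure D3:**
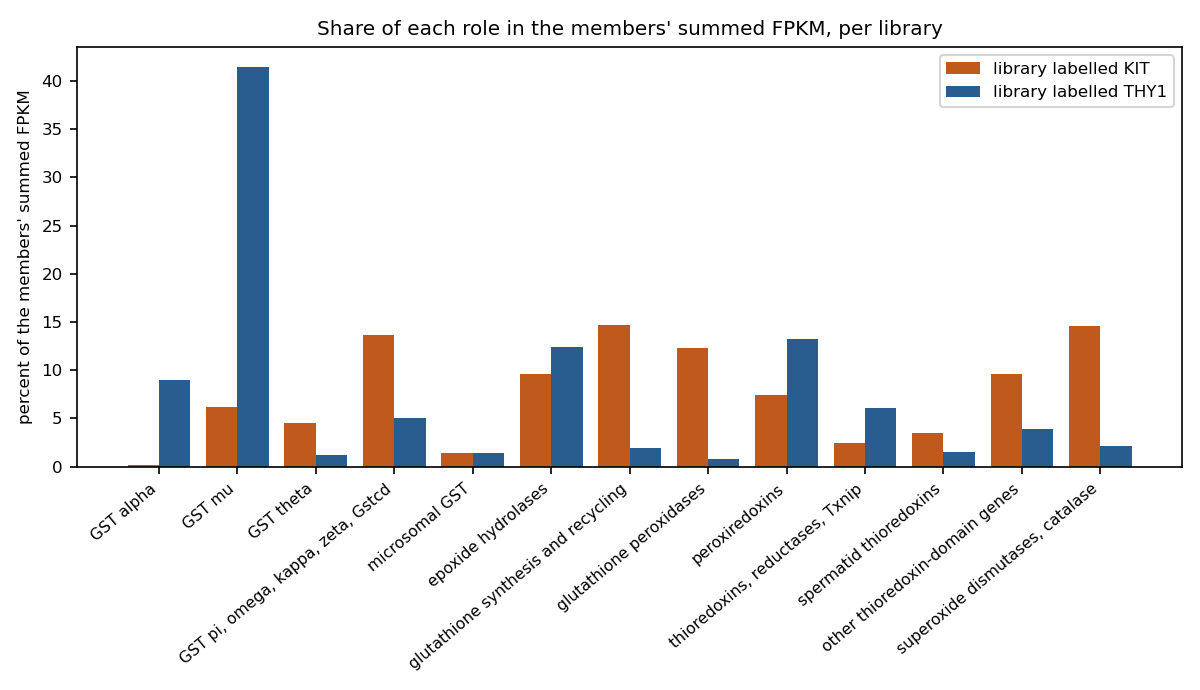
Share of each role in the members' summed FPKM, in percent, with the KIT-labelled library on the left and the THY1-labelled library on the right of each pair, 1 library each. The mu-class transferases hold 6.14% of the sum in the KIT-labelled library and 41.4% in the THY1-labelled library, and glutathione synthesis and recycling holds 14.7% and 1.97%.

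In the mu class, all 6 counted members were called higher in the THY1-labelled library, against 41.1% of all counted genes. Gstm1, a broadly acting conjugating enzyme abundant in liver, was listed at 0 in the KIT-labelled library and at 2512 FPKM in the THY1-labelled library, where it stood at percentile 99.98 of all genes. Gstm5, the mouse counterpart of a transferase enriched in testis and brain, was at 30.3 FPKM in the KIT-labelled library, against 1020.02 FPKM in the THY1-labelled library. Gstm2 stood at 3.46 FPKM under the KIT label, which is the worth of about 1.35 fragments, against 607 FPKM under the THY1 label. The remaining mu members were closer or lower. Gstm7 was at 25.9 and Gstm6 at 12.4 FPKM in the KIT-labelled library, against 57.6 and 32.6 FPKM in the THY1-labelled library, and both calls were lost after scaling to the same upper quartile (differences of -0.56 for Gstm7 and -0.77 for Gstm6). The Gstm7 call was also lost after scaling to the same sum without Rpph1 (-0.90). Gstm4 was listed at 0 in the KIT-labelled library and at 14.2 FPKM in the THY1-labelled library. The mu genes lie on chromosome 3. Of the 50-base windows of the longest coding transcript, 23.1% for Gstm1, 9.36% for Gstm2, 28.8% for Gstm3 and 11.5% for Gstm6 also occur in transcripts of other genes, among them Gstm3 for Gstm6 and the pseudogene Gstm2-ps1 for Gstm1. The 14.4% shared by Gstm5 are all with 4933431E20Rik. How reads with several alignments were counted is not given in the sources used here, so their values are uncertain to that extent. Gstm4 and Gstm7 shared no such window.

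The alpha class, which includes enzymes that act on lipid peroxidation products, stood apart most in its median (-6.48 over 3 counted genes). Gsta4, which conjugates the lipid aldehyde hydroxynonenal, was listed at 0 in the KIT-labelled library and at 582 FPKM in the THY1-labelled library. Gsta3, whose human and horse counterparts isomerise steroid precursors, was at 2.05 FPKM under the KIT label, about 1.09 fragments, and at 272 FPKM under the THY1 label. Neither shared any 50-base window with another gene. Gsta2 was listed at 0 in the KIT-labelled library and at 60.2 FPKM in the THY1-labelled library, and Gsta1 was listed at 0 and at 0.946 FPKM in the same order. Of the Gsta2 windows 64.2% occur in other genes (44.8% in Gsta1), and of the Gsta1 windows 89.7% do (82.9% in Gm3776), so how the reads of these genes were split is uncertain.

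The other classes were mixed. The theta gene Gstt4 was at 4.32 FPKM in the KIT-labelled library and 77.1 FPKM in the THY1-labelled library, and Gstt1 was listed at 0 and at 18.3 FPKM in that order. Their neighbours on chromosome 10 lay within 2-fold and slightly the other way, with Gstt2 at 24.5 FPKM under the KIT label and 13.0 FPKM under the THY1 label, and Gstt3, 25.997% of whose windows are shared, at 24.4 and 13.3 FPKM. The omega pair diverged. Gsto1, which reduces dehydroascorbate, was at 71.6 FPKM in the KIT-labelled library, against 12.8 FPKM in the THY1-labelled library, a ratio of 5.60. Gsto2, also on chromosome 19, was at 12.6 FPKM in the KIT-labelled library, against 200.4 FPKM in the THY1-labelled library, which is 16.0 times as high. Neither omega transcript shared a window with another gene. Gstk1, found in mitochondria and peroxisomes, was at 7.38 FPKM under the KIT label and 151 FPKM under the THY1 label. Gstp1, the pi-class enzyme, was listed at 0 in the KIT-labelled library and at 103 FPKM in the THY1-labelled library, but 62.3% of its windows occur in other transcripts, mainly those of Gstp2. Gstz1, which serves tyrosine breakdown, lay within 2-fold at 68.0 FPKM under the KIT label and 34.3 FPKM under the THY1 label. Gstcd, which carries only a transferase-like domain, was listed at 0 in the KIT-labelled library and at 17.6 FPKM in the THY1-labelled library.

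Of the microsomal transferases, Mgst1, a membrane enzyme of the endoplasmic reticulum and outer mitochondrial membrane, was listed at 0 in the KIT-labelled library and at 104 FPKM in the THY1-labelled library. Mgst3 lay within 2-fold at 16.6 FPKM under the KIT label and 32.1 FPKM under the THY1 label, and Mgst2 was listed at 0 and at 4.13 FPKM. Epoxide hydrolases, which open the reactive epoxides that transferases also remove, split. Ephx1, the microsomal enzyme, was listed at 0 in the KIT-labelled library and at 1225 FPKM in the THY1-labelled library, percentile 99.92 of all genes there. Ephx2, which hydrolyses fatty acid epoxides, was at 3.95 FPKM under the KIT label and 29.5 FPKM under the THY1 label. Ephx4 had the opposite direction, with 108 FPKM in the KIT-labelled library, against 12.3 FPKM in the THY1-labelled library, a ratio of 8.83 that rests on about 50.6 fragments under the KIT label and 36.7 under the THY1 label. Ephx3 was listed at 0 in the KIT-labelled library and at 0.611 FPKM in the THY1-labelled library.

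Of the 4 genes of glutathione synthesis and recycling 0 were called higher in the KIT-labelled library and 2 (50%) in the THY1-labelled library. Over all counted genes these shares were 39.5% and 41.1%, and 4 genes are too few to set against them. Gclc, the catalytic subunit of the rate-limiting ligase, was at 5.95 FPKM in the KIT-labelled library, against 61.5 FPKM in the THY1-labelled library. Gclm, its modifier subunit, lay within 2-fold at 19.4 FPKM under the KIT label and 13.5 FPKM under the THY1 label. On the per-length FPKM scale, Gclc thus stood below Gclm in the KIT-labelled library and above it in the THY1-labelled library. Gss, glutathione synthetase, was the second most abundant member of the KIT-labelled library at 143 FPKM, against 75.1 FPKM in the THY1-labelled library, and lay just within 2-fold. Of its windows 7.11% are shared, in part with the antisense gene Gssos2, and whether counting used strand is not stated. After scaling to the same upper quartile or to the same sum without Rpph1 it was past 2-fold, higher in the KIT-labelled library (differences of 1.49 and 1.14). Gsr, glutathione reductase, was at 4.26 FPKM under the KIT label and 51.3 FPKM under the THY1 label.

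The glutathione peroxidases were the role with the most members called higher in the KIT-labelled library, 4 of 8 counted (50%). Another 1 (12.5%) was called higher in the THY1-labelled library. Over all counted genes these shares were 39.5% and 41.1%, so with 8 genes the first lies near the general share. Their summed level was 144 FPKM under the KIT label and 83.1 FPKM under the THY1 label, the reverse of the summed level over all members. Gpx4, which protects membranes from lipid peroxides and forms part of the sperm midpiece, was at 26.8 FPKM in the KIT-labelled library, against 1.34 FPKM in the THY1-labelled library. This gene is uncertain, since 61.7% of its windows also occur in its pseudogene Gpx4-ps2 and its level under the KIT label is worth about 9.76 fragments. Gpx8, a peroxidase of the endoplasmic reticulum, was at 43.3 FPKM under the KIT label and 4.905 FPKM under the THY1 label, with no shared window. Gpx7, its relative in that compartment, was at 5.96 and 4.27 FPKM in the same order, within 2-fold. Gpx3, the secreted plasma form, was similar at 46.6 FPKM under the KIT label and 58.9 FPKM under the THY1 label. Gpx1, the general cytosolic form, was at 11.5 and 6.58 FPKM. Gpx6 was at 2.54 FPKM under the KIT label and 7.07 FPKM under the THY1 label, a call lost after scaling to the same upper quartile (difference of -0.70) or to the same sum without Rpph1 (-0.996). Gpx2, the intestinal form, and the pseudogene Gpx2-ps1 were at 3.73 and 3.99 FPKM in the KIT-labelled library and listed at 0 in the THY1-labelled library, but each is worth under 2 fragments (1.45 and 0.832). Gpx5, the epididymal form, was listed at 0 in both libraries, where 4 of the 5 epididymal markers were also listed at 0 in both.

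Of these members 7 have an annotated selenocysteine codon, a TGA read as an amino acid. It is shown in capitals with its coding context in the GENCODE M21 transcript, 5′ to 3′, because it separates the peroxidases that carry selenium from those that carry cysteine and is shared with the thioredoxin reductases.
Gpx1: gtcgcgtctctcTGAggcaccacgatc
Gpx2: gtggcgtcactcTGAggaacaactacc
Gpx3: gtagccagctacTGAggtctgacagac
Gpx4: gtggcctcgcaaTGAggcaaaactgac
Txnrd1: cagtctggctgcTGAggttaagcccca
Txnrd2: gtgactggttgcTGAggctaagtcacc
Txnrd3: cagaaaggctgcTGAggctagccctgc
In the 3 reductases the next codon but 1 is a stop (taa or tag), whereas in the 4 peroxidases the reading frame goes on for at least 125 codons. These 7 genes were not called in 1 direction. Gpx2 and Gpx4 were called higher in the KIT-labelled library, Gpx1 and Gpx3 lay within 2-fold, and Txnrd1, Txnrd2 and Txnrd3 were called higher in the THY1-labelled library.

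All 6 members of the thioredoxin system itself were called higher in the THY1-labelled library, against 41.1% of all counted genes. Txn1, the cytosolic thioredoxin, was at 13.1 FPKM in the KIT-labelled library and 108 FPKM in the THY1-labelled library, and its reductase Txnrd1 was at 10.2 and 223 FPKM in that order. The mitochondrial pair was listed at 0 in the KIT-labelled library, with Txn2 at 80.3 FPKM and its reductase Txnrd2 at 20.3 FPKM in the THY1-labelled library. Txnrd3, a thioredoxin glutathione reductase that is most abundant in testis, was at 3.79 FPKM under the KIT label and 139 FPKM under the THY1 label. Txnip, which binds and blocks thioredoxin, was at 1.23 FPKM under the KIT label and 46.4 FPKM under the THY1 label, so the inhibitor and the enzymes had the same direction. Of the Txnip windows 18.4% also occur in transcripts of Gm15441. The reductases, thioredoxins and Txnip summed to 28.3 FPKM under the KIT label and 617 FPKM under the THY1 label.

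Peroxiredoxins, which hand peroxide reduction on to thioredoxin, mostly had that direction too. Prdx5, the mitochondrial and peroxisomal form, was listed at 0 in the KIT-labelled library and at 481 FPKM in the THY1-labelled library, although 29.7% of its windows also occur in transcripts of Trmt112. The cytosolic Prdx1 was at 14.5 FPKM under the KIT label and 336 FPKM under the THY1 label, and Prdx2, abundant in red cells, was at 21.0 and 181 FPKM. Of their windows 10.9% for Prdx1 and 23.8% for Prdx2 are shared with other genes. Prdx3, the mitochondrial form, was at 5.50 FPKM under the KIT label and 106 FPKM under the THY1 label. Prdx4, the secretory-pathway form encoded on the X chromosome, was at 12.6 and 207 FPKM in that order. Prdx6, the 1-cysteine form that uses glutathione instead of thioredoxin, lay within 2-fold at 30.4 FPKM under the KIT label and 42.4 FPKM under the THY1 label. Its relative Prdx6-ps1 was at 2.79 FPKM in the KIT-labelled library, worth about 2.94 fragments, and at 0.309 FPKM in the THY1-labelled library.

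**Figure D4:**
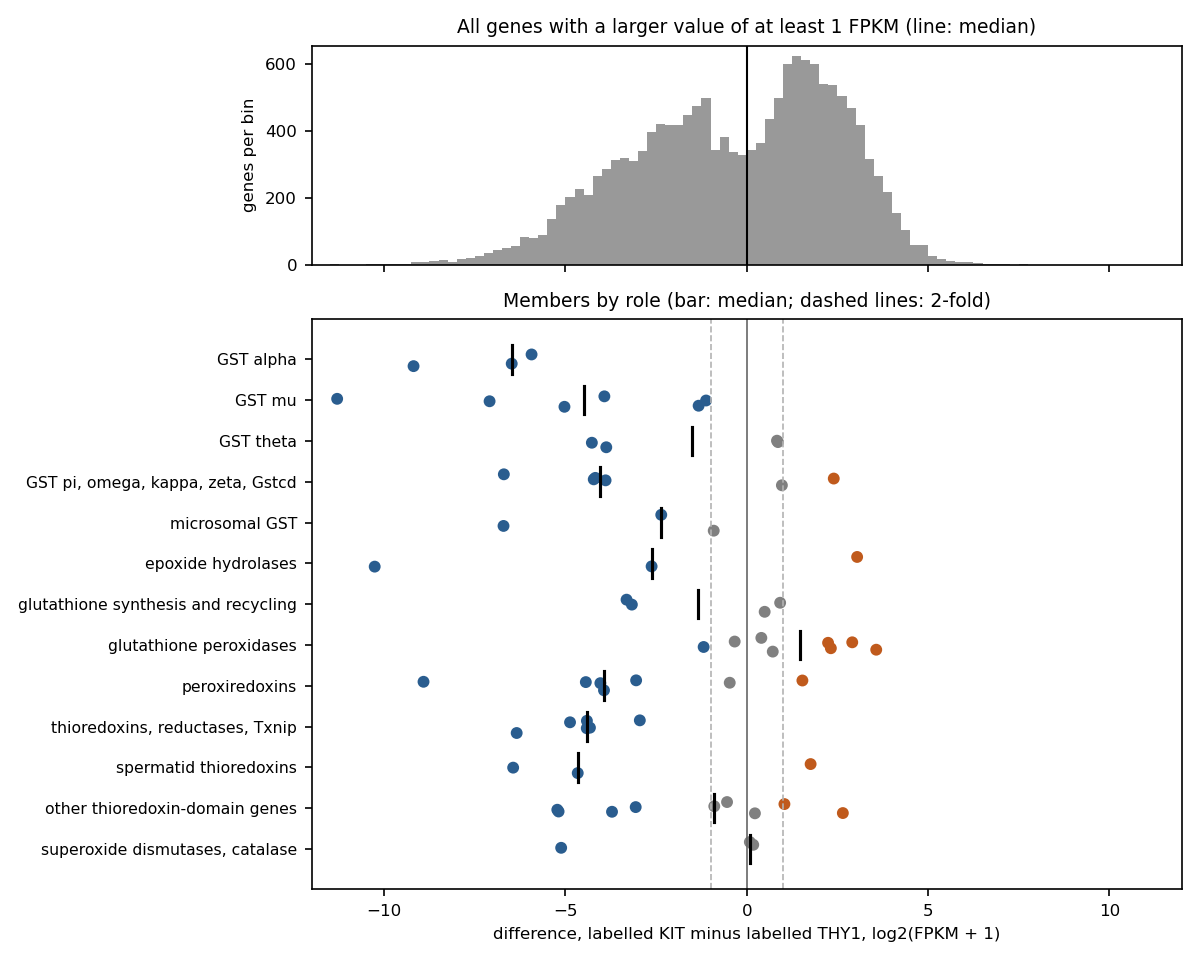
Top, histogram of the difference, KIT-labelled minus THY1-labelled, on the log2(FPKM + 1) scale over 15573 genes, with a line at the median of -0.0026. Bottom, the same difference for the 65 counted members by role, 1 point a gene (vertical offsets carry no value), with bars at medians and dashed lines at 2-fold. The bars lie left of 0 for every role but the glutathione peroxidases (median 1.48) and the superoxide dismutases with catalase (median 0.084).

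The spermatid thioredoxins, which serve the sperm tail and acrosome, were not called in 1 direction. Txndc2, of the fibrous sheath, was at 39.7 FPKM in the KIT-labelled library, against 11.0 FPKM in the THY1-labelled library. Txndc3 and Txndc8 were the reverse, at 1.24 FPKM and a listed 0 in the KIT-labelled library, against 55.6 and 85.9 FPKM in the THY1-labelled library. None of the 3 shared a window with another gene. Among 9 counted other thioredoxin-domain genes 2 (22.2%) were called higher in the KIT-labelled library and 4 (44.4%) in the THY1-labelled library. Over all counted genes these shares were 39.5% and 41.1%. Txnl1, which associates with the proteasome, was at 2.997 FPKM under the KIT label and 145 FPKM under the THY1 label. The endoplasmic reticulum proteins Txndc12 and Txndc5 were at 4.28 and 5.28 FPKM in the KIT-labelled library, against 68.4 and 51.5 FPKM in the THY1-labelled library. Txndc16 was listed at 0 in the KIT-labelled library and at 36.4 FPKM in the THY1-labelled library. Txnl4a, a splicing factor of the U5 particle with a thioredoxin fold, had the other direction at 34.99 FPKM under the KIT label and 4.74 FPKM under the THY1 label, and rests on about 52.2 fragments under the KIT label and 45.3 under the THY1 label. Txndc17 (48.6 FPKM under the KIT label and 71.3 FPKM under the THY1 label), Txndc11 (11.3 and 21.9 FPKM) and Txndc15 (4.57 and 3.77 FPKM) lay within 2-fold. Txndc9 was called at 1.09 FPKM under the KIT label against 0.0161 FPKM under the THY1 label, the worth of about 1.38 fragments in the KIT-labelled library.

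Sod1, the cytosolic superoxide dismutase, was the most abundant member of the KIT-labelled library and similar between libraries, at 167 FPKM under the KIT label and 147 FPKM under the THY1 label, with 23.1% of its windows also in Gm8566. Sod3, the extracellular form, was at 2.03 and 1.86 FPKM in that order. Sod2, the mitochondrial form, was below 1 FPKM in both, at 0.980 FPKM under the KIT label and 0.153 FPKM under the THY1 label. Catalase (Cat), the peroxisomal enzyme that breaks down hydrogen peroxide, was at 1.13 FPKM under the KIT label, about 1.08 fragments, and at 73.1 FPKM under the THY1 label. In the KIT-labelled library only Sod1, Gss and Ephx4 reached 100 FPKM, against 20 members in the THY1-labelled library.

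Many genes of these families carry an antioxidant response element, the sequence TGACNNNGC bound by the factor Nrf2 (gene Nfe2l2) with a small Maf protein. It was searched on both strands in RefSeq promoter windows of 300 bases (250 before to 50 after the transcript start, GRCm38.p6). Of the members 61 have a promoter there, and 11 of these (18.0%) held the motif, against 14.0% of all 27025 genes in that table. Counted by window, since a gene can have several, 11 of 81 member windows (13.6%) held it, against 12.4% of all 32851. A match is a description of letters and not a shown binding site. Among the members with a promoter there, the motif was in 1 of 7 called higher in the KIT-labelled library, in 7 of 35 called higher in the THY1-labelled library and in 3 of 12 within 2-fold. The matches are shown in capitals (GCNNNGTCA where they lie on the opposite strand) within their context, 5′ to 3′ on the gene's strand, so that called members can be set beside members within 2-fold.
Gsta3 (chr1:21240454-21240482, plus strand): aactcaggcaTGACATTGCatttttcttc
Gstm5 (chr3:107895802-107895830, plus strand): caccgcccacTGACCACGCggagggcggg
Gstm7 (chr3:107931725-107931753, minus strand): tctgaagaccTGACAAAGCgaagccaatc
Mgst1 (chr6:138140461-138140489, plus strand): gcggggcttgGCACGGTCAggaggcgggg
Prdx1 (chr4:116685456-116685484, plus strand): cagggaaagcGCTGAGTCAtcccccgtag
Txnrd1 (chr10:82859104-82859132, plus strand): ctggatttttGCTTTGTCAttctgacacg
Txndc5 (chr13:38528034-38528062, minus strand): gcctcgccgcTGACGTGGCgctagccgcc
Txndc2 (chr17:65639941-65639969, minus strand): ctttgaacctTGACCTAGCctagctgtgt
Gclm (chr3:122245413-122245441, plus strand): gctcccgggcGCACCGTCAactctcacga
Sod1 (chr16:90220696-90220724, plus strand): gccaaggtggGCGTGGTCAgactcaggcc
Txndc11 (chr16:11134755-11134782, minus strand): gtggaaggcTGACGCGGCcgcgagtgct
The first 7 belong to members called higher in the THY1-labelled library, Txndc2 was called higher in the KIT-labelled library, and the last 3 lay within 2-fold. The 250 bases before the start of the 2 most abundant mu genes of the THY1-labelled library show 1 with the motif (capitals) and 1 without it.
Gstm5 (chr3:107895604-107895853, plus strand): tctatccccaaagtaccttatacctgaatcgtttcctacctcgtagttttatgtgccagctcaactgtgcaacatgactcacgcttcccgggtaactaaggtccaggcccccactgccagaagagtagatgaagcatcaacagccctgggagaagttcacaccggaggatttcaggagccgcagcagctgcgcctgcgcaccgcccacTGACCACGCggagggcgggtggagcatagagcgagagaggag
Gstm1 (chr3:108017819-108018068, minus strand): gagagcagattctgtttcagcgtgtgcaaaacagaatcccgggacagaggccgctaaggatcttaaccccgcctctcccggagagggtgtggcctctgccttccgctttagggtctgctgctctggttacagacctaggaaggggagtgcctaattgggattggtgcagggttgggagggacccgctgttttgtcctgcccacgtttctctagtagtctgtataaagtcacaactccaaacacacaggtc
Neither of the 2 Gstm1 windows in that table holds the motif.

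Of 6 regulators of that element 2 were called higher in the KIT-labelled library, 0 in the THY1-labelled library, and 4 lay within 2-fold. Nfe2l2 was at 33.5 FPKM in the KIT-labelled library and 25.9 FPKM in the THY1-labelled library, and its cytoplasmic anchor Keap1 at 14.1 and 7.07 FPKM, both within 2-fold. The small Maf genes Mafk and Maff were called higher in the KIT-labelled library, with Mafk at 55.9 FPKM under the KIT label and 0.806 FPKM under the THY1 label, and Maff at 40.2 and 4.99 FPKM, while Mafg was at 4.43 and 2.23 FPKM, within 2-fold. Related genes outside the member families came from a list of 73 measured genes. Of 69 that could be counted, 20 (29.0%) were called higher in the KIT-labelled library and 37 (53.6%) in the THY1-labelled library, against 39.5% and 41.1% of all counted genes, with a median difference of -1.28. Among 14 counted genes listed here as targets of the element, 5 (35.7%) were called higher in the KIT-labelled library and 9 (64.3%) in the THY1-labelled library. That list includes Hmox2, which is not an established target and is among those called higher in the THY1-labelled library. Nqo2, a quinone reductase, was at 111 FPKM under the KIT label and 23.4 FPKM under the THY1 label, whereas its relative Nqo1 was at 4.83 and 25.1 FPKM. The heme oxygenases Hmox1 and Hmox2 were at 83.2 and 117 FPKM in the KIT-labelled library, against 231 and 496 FPKM in the THY1-labelled library. Of 8 genes listed for NADPH supply 1 (12.5%) was called higher in the KIT-labelled library and 5 (62.5%) in the THY1-labelled library. That list includes Tkt and Taldo1, which do not make NADPH themselves and are among those called higher in the THY1-labelled library. Tkt was at 2.102 FPKM under the KIT label and 254 FPKM under the THY1 label. Of the NADPH-producing enzymes, Idh1 was at 1.21 and 217 FPKM in that order. G6pdx (3.62 and 7.89 FPKM) and Me1 (1.70 and 2.44 FPKM) lay within 2-fold. Of 9 counted genes that break glutathione down 3 (33.3%) were called higher in the KIT-labelled library and 4 (44.4%) in the THY1-labelled library, near the shares over all genes. Oplah, which opens the oxoproline left by glutathione breakdown, was at 205 FPKM under the KIT label and 62.8 FPKM under the THY1 label, and Chac2, which cleaves glutathione itself, was at 43.3 and 5.33 FPKM.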

How the data were processed

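Values were deposited for 2 spermatogonial samples as tables pairing each gene symbol with a decimal value. No unit stands in the headers. The deposited values were read as FPKM (fragments per kilobase of transcript and per fixed number of fragments), because the submitters' processing notes list Cufflinks 2.1.1. TopHat 1.4.1, CASAVA and mm9 are listed there too, with no role given. Which gene annotation was used, and how multiply aligned reads were treated, is not given in the sources used here. Tables were assigned to samples as recorded in the series, and samples to groups by title.

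Differences are KIT-labelled minus THY1-labelled on the log2(FPKM + 1) scale, for genes reaching 1 FPKM in either library, called at 2-fold, over all genes. No test is possible with 1 library per group. Members and lists were chosen with earlier results of these data known. Members reaching 20 FPKM in either library, or listed at 0 in 1 library and at least 5 FPKM in the other, were to be named with their values, and the remaining ones are given as well.

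Depth is unknown. The product of FPKM and transcript length, at percentile 5 of nonzero values over 2307 genes with a single GENCODE M21 transcript over 1000 bases, served as the worth of 1 fragment (2735 under the KIT label and 427 under the THY1 label). Fragment numbers use the longest coding transcript and are rough. All 72 members matched GENCODE M21, 2 of them under a newer symbol. M21 and RefSeq are on GRCm38 and gave lengths, windows, chromosomes and sequences only. Sequences were searched as exact 50-base windows on both strands. The code that makes the calls was run on simulated data, which does not show how reliable the calls are in these libraries. Alternatives were another pseudocount, 3 scalings, other minimum values and members with little shared sequence. Python 3.11.15, numpy 2.4.6 and pandas 2.3.3 were used.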

Additional observations from a re-analysis of the deposited data

How the results depend on the processing

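No paired analysis was possible because the 2 libraries with values are single samples, so no replicate could be left out either. Directions of the members called in the main comparison held under a pseudocount of 0.1 and the 3 scalings. Members higher in the KIT-labelled library numbered 16 (against 10) after scaling to the same upper quartile, 6 with a minimum of 5 FPKM and 5 with a minimum of 30 FPKM. They also numbered 5 with at least 10 fragments behind the larger value and 5 among members with under 5% of windows shared, both chosen after seeing the data. The 10-fragment filter is stricter for genes higher in the KIT-labelled library. There 1 fragment of a transcript of 1000 bases is worth about 2.74 FPKM, against 0.427 FPKM in the THY1-labelled library. The counts and medians under this filter therefore cannot show a balance between the 2 directions. Members higher in the THY1-labelled library numbered 25 (against 40) among genes above 0 in both libraries. The members' median was -3.80 with a minimum of 5 FPKM, -3.94 with 30 FPKM, -3.89 with 10 fragments and -1.16 above 0 in both libraries. With a minimum of 30 FPKM all genes gave 2175 higher under the KIT label, 2815 higher under the THY1 label and a median of -0.99. With 10 fragments they gave 3212 higher under the KIT label and a median of -1.14, and above 0 in both libraries 4175 higher under the THY1 label. The alternatives changed the gene sets or the scale only; the cause of each shift was not tested. Scaling to a median ratio of 1, to the upper quartile and to the sum without Rpph1 shifted differences by -0.56, 0.58 and 0.22 on the log2 scale, and brought 4 (Prdx6, Mgst3, Txndc17 and Txndc11, toward the THY1 label), 6 (Gstt2, Gstt3, Gstz1, Gss, Gclm and Gpx1, toward the KIT label) and 4 members (Gstt2, Gstt3, Gstz1 and Gss, toward the KIT label) past 2-fold and 0, 3 (Gstm6, Gstm7 and Gpx6) and 2 (Gstm7 and Gpx6) within it. Depth is unknown, which limits what listed 0 values show.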

Other observations

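The following counts are of few genes, and over all counted genes 39.5% were called higher in the KIT-labelled library and 41.1% in the THY1-labelled library. Of 7 glutaredoxin and glyoxalase genes 3 were called higher in the KIT-labelled library and 4 in the THY1-labelled library. The glyoxalase pair, which clears methylglyoxal with glutathione, diverged, with Glo1 at 19.04 FPKM under the KIT label and 0.259 FPKM under the THY1 label, and Hagh at 38.5 and 295 FPKM. Glutathione-binding Lancl1, abundant in testis and brain, was at 0.804 FPKM under the KIT label and 89.6 FPKM under the THY1 label. Of 6 genes of sulfur supply 4 were called higher in the KIT-labelled library and 2 in the THY1-labelled library. Among them was Mat2a, which makes S-adenosylmethionine, at 46.4 FPKM under the KIT label and 3.86 FPKM under the THY1 label. Cth, which releases cysteine for glutathione, was listed at 0 in the KIT-labelled library and at 21.8 FPKM in the THY1-labelled library.

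Of 7 selenoprotein synthesis and transport genes 1 was called higher in the KIT-labelled library and 4 in the THY1-labelled library. Sephs2, which makes the selenium donor, was at 20.1 FPKM under the KIT label and 1.70 FPKM under the THY1 label. The selenium carrier Sepp1 was at 24.7 FPKM under the KIT label and 290.4 FPKM under the THY1 label. Of 4 methionine sulfoxide reductase genes 1 was called higher in the KIT-labelled library and 2 in the THY1-labelled library, and Sepx1 was listed at 0 in the KIT-labelled library and at 31.8 FPKM in the THY1-labelled library. Of 8 other antioxidant genes 0 were called higher in the KIT-labelled library and 7 in the THY1-labelled library. Park7, a redox-sensitive protein, was listed at 0 in the KIT-labelled library and at 184 FPKM in the THY1-labelled library.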
